A study of Bos taurus with 179 samples.

Results

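ALDH1A1 (ENSBTAG00000008103) and ALDH1A2 (ENSBTAG00000010119) encode retinaldehyde dehydrogenases, the enzymes that make retinoic acid. They are described here in growing bovine oocytes, as 2 of the 21218 gene IDs of the raw count table, and each stands on a single line of it. Their IDs were taken from the gene lists published with the study, where both stand among the genes expressed in every size group. The members were thus chosen by their detection in the groups, which is given as a description, with no test. They were also chosen with earlier results of these data known, and the p-values below do not allow for that choice.

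Retinoic acid is made from vitamin A. Retinol is first oxidised, reversibly, to retinal by alcohol and retinol dehydrogenases, and retinal is then oxidised to retinoic acid by ALDH1A1, ALDH1A2 or ALDH1A3, a step that is not reversed. Retinoic acid acts through nuclear receptors of the RAR and RXR families, cellular binding proteins such as CRABP1 carry it, and enzymes of the CYP26 family degrade it. In the gonads it is best known for its link to the entry of germ cells into meiosis.

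Oocytes of Bos taurus came from ovaries collected at an abattoir. Cutting the cortex gave oocytes of late secondary to early antral follicles, after visible follicles had been emptied by aspiration. The study places its largest size groups at antral and ovulatory stages, and whether aspirated oocytes are among them is not given in the sources used here. Oocytes were handled in medium with heparin and cilostamide, a phosphodiesterase inhibitor, stripped of cumulus cells, measured and frozen singly. No treatment set the groups apart, and the sources name neither the age nor the identity of the animals. Polyadenylated mRNA of each oocyte was amplified and sequenced in 2 library replicates, with reads of 150 bp in replicate 1 (97 oocytes) and of 75 bp in replicate 2 (68 oocytes). The oocytes analysed fall into 8 size groups: < 60 μm in diameter (n = 21), 60–69 μm (n = 25), 70–79 μm (n = 23), 80–89 μm (n = 24), 90–99 μm (n = 21), 100–109 μm (n = 18), 110–119 μm (n = 19) and > 120 μm (n = 14).

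The total count per oocyte ranged from 277126 to 8038061, with a median of 1763520. The group of the smallest oocytes came mainly from replicate 2, with 18 of its 21 oocytes. Of 6 genes typical of oocytes, 5 could be paired with an ID, and all 5 had counts in every group, with a median summed level between 3703 and 7919 counts per 1000000 (CPM). Of 9 genes typical of granulosa cells only 3 could be paired, AMHR2, FSHR and GATA4, and these summed to a group median of at most 1.56 CPM. AMH, FOXL2, INHA, INHBA, CYP19A1 and FST could not be paired, so this sum covers granulosa transcripts only in part. CPM here is a count divided by the effective library size, which is the total count times a TMM factor (between 0.658 and 1.25, median 1.02), so it is a level relative to the other transcripts of an oocyte and not an amount per oocyte.

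In oocytes < 60 μm in diameter, ALDH1A2 was present in nearly every oocyte, whereas ALDH1A1 was missing from many. At least 1 count of ALDH1A1 was found in 11 of 21 oocytes < 60 μm (52.4%, exact 95% binomial interval from 29.8 to 74.3%), and at least 1 count of ALDH1A2 in 20 of 21 (95.2%). The share with ALDH1A1 was 21 of 25 oocytes at 60–69 μm, 21 of 23 at 70–79 μm and 23 of 24 at 80–89 μm. From 90 μm upward only 1 oocyte had no ALDH1A1 count, at 110–119 μm. For ALDH1A2, 24 of 25 oocytes at 60–69 μm, 22 of 23 at 70–79 μm and every larger oocyte had a count.

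**Figure D1:**
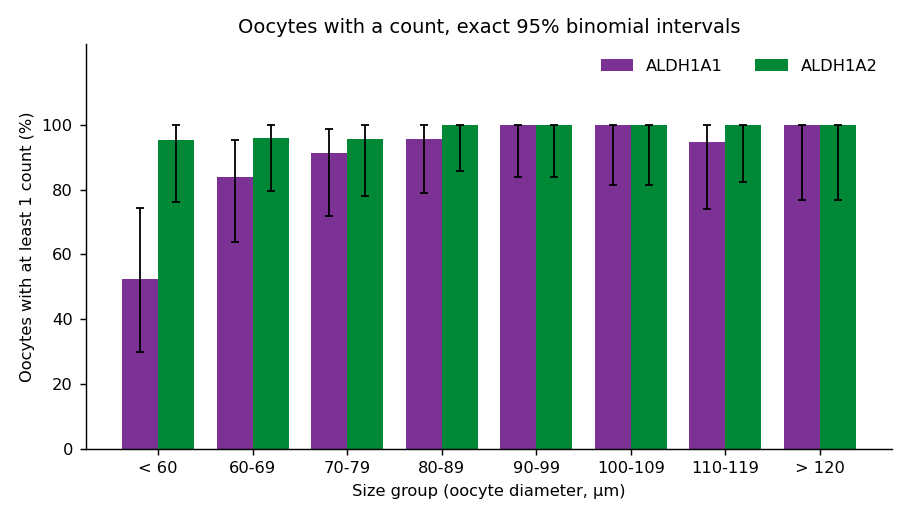
Share of oocytes with at least 1 count (y axis, percent) of ALDH1A1 (purple) and ALDH1A2 (green) in each size group (x axis, oocyte diameter); error bars are exact 95% binomial intervals. ALDH1A1 starts at 52.4% of the oocytes < 60 μm, where ALDH1A2 is already at 95.2%.

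No analysed oocyte had ALDH1A1 without ALDH1A2, but only 3 analysed oocytes lacked ALDH1A2 at all. Whether detection of the genes was linked was not tested. Of all oocytes analysed, 89.1% had counts of both genes, 15 had counts of ALDH1A2 only, 3 had neither, and 0 had ALDH1A1 only. Among the 14 deposited oocytes outside the analysed set, 3 had ALDH1A1 only, with 1 to 13 counts of it in totals between 6561 and 63163. Of the 15 oocytes with ALDH1A2 only, 9 were < 60 μm in diameter, 3 were at 60–69 μm and 1 each at 70–79, 80–89 and 110–119 μm. The 18 oocytes with no ALDH1A1 count had totals between 484296 and 4329162 counts, and those of them with ALDH1A2 had between 1.80 and 64.9 CPM of it. A count of 0 means that the transcript could not be detected at the depth of its library. The binomial intervals treat the oocytes of a group as independent, and they do not cover differences in depth between libraries.

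The median level of ALDH1A1 was higher in each size group than in the one before, up to oocytes of 100–109 μm. In oocytes < 60 μm its level ranged from 0 to 27.1 CPM, with a median of 0.469 CPM. At 60–69 μm the range was 0 to 92.6 CPM and the median 10.5 CPM. These groups overlapped widely, since both held oocytes at 0, but the median of the larger oocytes lay well above that of the smaller. At 70–79 μm ALDH1A1 ranged from 0 to 139 CPM, with a median of 37.0 CPM. At 80–89 μm it ranged from 0 to 243 CPM, with a median of 60.4 CPM. At 90–99 μm the lowest oocyte had 2.12 CPM, the median was 88.3 CPM and the highest oocyte had 419 CPM. Oocytes of 100–109 μm were the most uniform in being high, as none of the 18 fell below 27.7 CPM. Their median was 231 CPM and their highest value 537 CPM.

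Beyond 110 μm the level of ALDH1A1 was lower in the median and more scattered. At 110–119 μm it ranged from 0 to 1550 CPM, with a median of 157 CPM in the 12 oocytes of replicate 1 and of 103 CPM in the 7 of replicate 2. The medians at 100–109 μm were 171.9 CPM in replicate 1 and 249.4 CPM in replicate 2. Between these groups the median thus differed little in replicate 1 and mainly in replicate 2. In oocytes > 120 μm it ranged from 5.71 to 594 CPM, with a median of 75.9 CPM. By replicate the medians at > 120 μm were 80.47 CPM in replicate 1 and 29.49 CPM in replicate 2. Within each replicate, both groups therefore had medians below that of 100–109 μm. Their maxima over both replicates were higher. As means, ALDH1A1 was 222 ± 135 CPM (SD, n = 18) at 100–109 μm, 248 ± 354 CPM (SD, n = 19) at 110–119 μm and 126 ± 153 CPM (SD, n = 14) at > 120 μm, so the SD exceeded the mean in the latter pair of groups.

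The level of ALDH1A2 was much the same in all small oocytes and higher in the large ones. Its level was 0 to 30.4 CPM in oocytes < 60 μm, with a median of 12.7 CPM. At 60–69 μm it was 0 to 37.4 CPM, with a median of 11.3 CPM, and at 70–79 μm it was 0 to 31.6 CPM, with a median of 10.5 CPM. The ranges of these 3 groups nearly coincided. At 80–89 μm the level lay between 5.14 and 53.2 CPM, with a median of 14.7 CPM, and at 90–99 μm between 4.47 and 63.7 CPM, with a median of 16.4 CPM. The larger oocytes had more. At 100–109 μm ALDH1A2 lay between 14.9 and 73.1 CPM, with a median of 36.6 CPM. At 110–119 μm it lay between 15.3 and 215 CPM, with a median of 54.4 CPM, and in oocytes > 120 μm between 32.2 and 183 CPM, with a median of 70.1 CPM. The lowest oocyte > 120 μm, at 32.2 CPM, stood just above the highest of the 23 oocytes at 70–79 μm, at 31.6 CPM. This held only with the TMM factor. Per total count these groups overlapped, as that oocyte held 24 counts in 880302 and 1 at 70–79 μm held 16 in 431855. The mean was 14.6 ± 9.84 CPM (SD, n = 21) at < 60 μm and 93.7 ± 48.9 CPM (SD, n = 14) at > 120 μm.

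**Figure D2:**
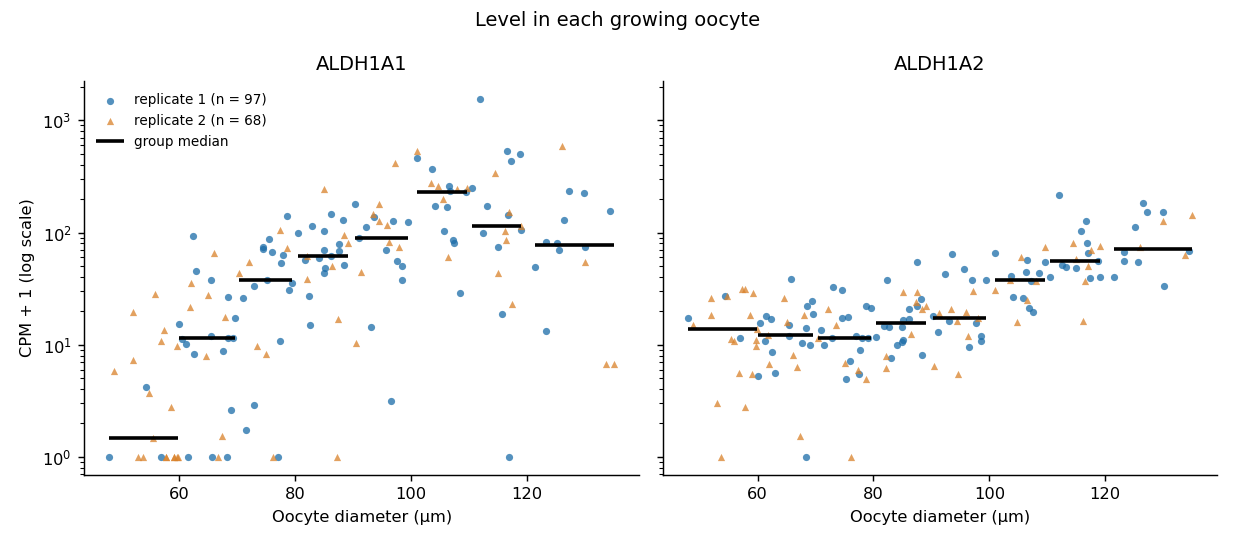
Level of ALDH1A1 (left) and ALDH1A2 (right) in each oocyte analysed, as CPM + 1 on a log axis, against oocyte diameter in μm; circles are replicate 1, triangles replicate 2, and black bars the median of each size group. The median of ALDH1A1 climbs from 0.469 CPM at < 60 μm to 231 CPM at 100–109 μm and then scatters, whereas that of ALDH1A2 stays between 10.5 and 16.4 CPM up to 99 μm and reaches 70.1 CPM at > 120 μm.

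On this scale a single oocyte had the highest level of both genes. It measured 111.95 μm, belonged to replicate 1 and held 4206 counts of ALDH1A1 and 583 counts of ALDH1A2 in a total of 3995248. Its 1550 CPM of ALDH1A1 stood against 594 CPM in the next oocyte, and its 215 CPM of ALDH1A2 against 183 CPM in the next. Per 1000000 of the total count, with no TMM factor, it was still highest for ALDH1A1, with 1053 against 694 in the next, but had rank 3 for ALDH1A2, with 145.9 against 179.9 in the highest. It gave 45.5% of the ALDH1A1 counts of its group in replicate 1 and 28.8% of the ALDH1A2 counts. Without it the mean of ALDH1A1 at 110–119 μm was 176.1 ± 165.4 CPM (SD, n = 18). In replicate 2 of the group > 120 μm, which holds 4 oocytes, 1 oocyte gave 87.5% of the ALDH1A1 counts. A single oocyte also gave all 19 ALDH1A1 counts of the 3 oocytes < 60 μm of replicate 1, 54.9% of those at 100–109 μm of replicate 1 and 50.6% of those at 70–79 μm of replicate 2, and between 15.5 and 41.4% in the other 11 groups of a replicate.

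Across all oocytes analysed, Pearson's r between oocyte diameter and log2(CPM + 1) of ALDH1A1, centred within each replicate, was 0.603 (Spearman's rho 0.663). For ALDH1A2 the r was 0.677 and the rho 0.661. Within replicate 1 (97 oocytes) the r was 0.583 for ALDH1A1 and 0.719 for ALDH1A2, and within replicate 2 (68 oocytes) it was 0.624 and 0.629. Leaving out the 2 oocytes whose diameter lay farthest from the median gave 0.624 for ALDH1A1 and 0.663 for ALDH1A2. Among oocytes with at least 1 count they were 0.569 for ALDH1A1 and 0.695 for ALDH1A2. Oocytes of the same animal cannot be told apart and all share the replicate's libraries, so these are descriptions.

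The levels of ALDH1A1 and ALDH1A2 in the same oocyte correlated with an r of 0.477 (rho 0.469) across all oocytes, and with 0.286 when values were centred within each size group and replicate. Within single groups it ranged from −0.076 at 80–89 μm (n = 24) to 0.599 at 90–99 μm (n = 21). Both genes were measured in the same library, so its depth bears on both.

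For tests between size groups, counts were summed over the oocytes of each group and replicate, which gave 16 sums, 2 per group. For ALDH1A1 the sums of the smallest oocytes held 19 counts in replicate 1 (1.40 CPM) and 248 counts in replicate 2 (5.24 CPM). They stood at 20.0 and 20.8 CPM at 60–69 μm, 42.4 and 41.4 CPM at 70–79 μm, 67 and 61.8 CPM at 80–89 μm, and 72.7 and 127 CPM at 90–99 μm. At 100–109 μm they were 185 CPM in replicate 1 and 277.2 CPM in replicate 2. Up to this size each group stood above the one before in both replicates. Beyond it the replicates went in different directions, with 310 and 122 CPM at 110–119 μm and 83.5 and 149 CPM at > 120 μm.

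For ALDH1A2 the sums were 18.4 CPM in replicate 1 and 13.4 CPM in replicate 2 at < 60 μm. They were 11.8 and 9.55 CPM at 60–69 μm, 13.4 and 8.38 CPM at 70–79 μm, and 14.3 and 13.8 CPM at 80–89 μm. Both replicates were higher at 90–99 μm, with 23.1 and 15.4 CPM, and again in every later group. They reached 40.8 and 34.6 CPM at 100–109 μm, 67.9 and 49.8 CPM at 110–119 μm and 71.2 and 112 CPM at > 120 μm.

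**Figure D3:**
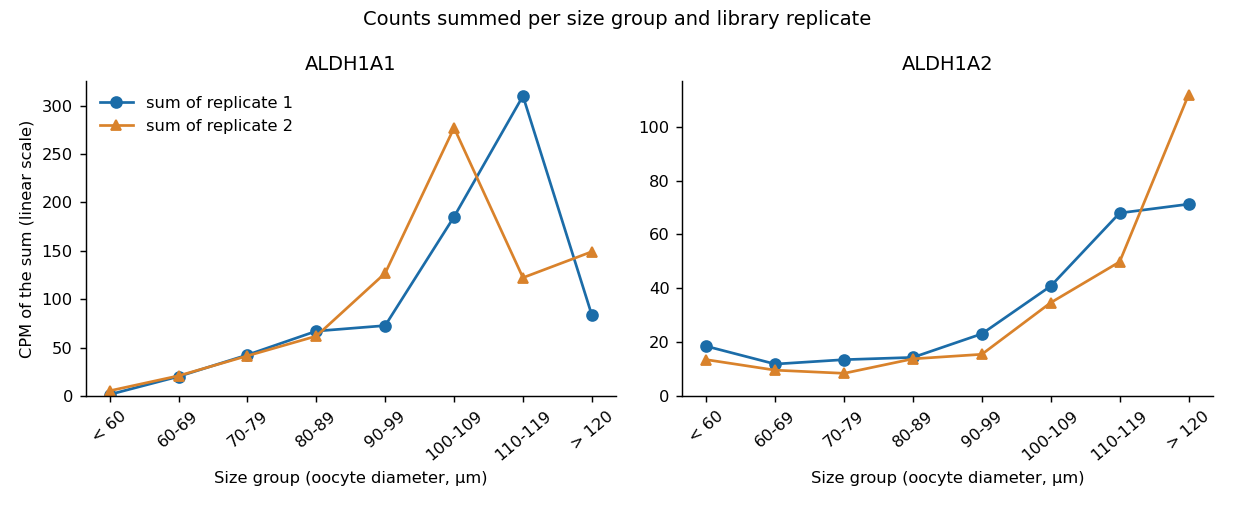
CPM of the counts summed over the oocytes of each size group (x axis), with 1 point per library replicate (blue circles replicate 1, orange triangles replicate 2) on a linear axis that starts at 0. For ALDH1A1 (left) replicate 2 is above replicate 1 at 90–99 μm (127 and 72.7 CPM) and below it at 110–119 μm (122 and 310 CPM); ALDH1A2 (right) is higher in each successive group of both replicates from 80–89 μm to > 120 μm.

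Between the smallest and the largest oocytes both genes were upregulated. ALDH1A1 had a log2 fold change of 5.07 between < 60 and > 120 μm (standard error, SE, 0.53), which is 33.5-fold, with an adjusted p of 1.34e-05 in the quasi-likelihood test of edgeR, adjusted by Benjamini-Hochberg over 14087 genes. ALDH1A2 had a log2 fold change of 2.56 (SE 0.34), which is 5.91-fold, and an adjusted p of 8.37e-05 in the same edgeR test. In this comparison 19.2% of all genes were called, 9.36% as higher and 9.80% as lower in the larger oocytes, and the median of all genes was −0.12 on the log2 scale. Without the single oocyte that gave most ALDH1A1 counts of the > 120 μm sum of replicate 2, the log2 fold change of ALDH1A1 was 4.01, and edgeR's adjusted p was 0.000307. Of the markers tested between < 60 and > 120 μm, 4 of the 5 of oocytes and 1 of the 4 of theca and stroma were called as higher. In the test for any difference among the 8 groups, where 14.9% of all genes were called, edgeR's adjusted p was 9.40e-06 for ALDH1A1 and 8.34e-06 for ALDH1A2, and 0.0838 for both without the replicate block. The p-values measure the spread between sums of the library replicates, since no animal is named.

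In the successive comparisons 1 call was made, for ALDH1A1. Between oocytes < 70 μm and those of 70–79 μm, ALDH1A1 was upregulated, with a log2 fold change of 2.34 (SE 0.38), or 5.07-fold, and an adjusted p of 0.0156 (edgeR, Benjamini-Hochberg). It was 1 of 19 DEGs of this comparison, 0.135% of all genes, all higher in the larger oocytes. ALDH1A2 had −0.27 (SE 0.29, edgeR's adjusted p = 0.877) there. The call of ALDH1A1 was lost when any 1 of the 4 sums at 60–69 and 70–79 μm was left out (adjusted p between 0.0710 and 0.186 by edgeR), while its log2 fold change stayed between 2.17 and 2.48. It was also lost without the replicate block, with an adjusted p of 1 by edgeR, and with all 179 deposited oocytes, with 0.0813 by edgeR, and it held in 19 of the 25 alternatives run, whose adjusted p-values lay between 6.56e-06 and 1. Whether the genes differed from each other within a comparison was not tested.

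Between < 60 and 60–69 μm, ALDH1A1 had a log2 fold change of 2.60 (SE 0.49), the largest of the successive comparisons, but edgeR's adjusted p was 0.131. Only 2 genes, 0.0142% of all, were called in this comparison. DESeq2 on the same sums gave ALDH1A1 a log2 fold change of 2.63 and an adjusted p of 0.00012, and edgeR with no filter on low counts gave 0.000281. Over its 25 alternatives the adjusted p of ALDH1A1 lay between 0.00012 and 1, and 6 passed. ALDH1A2 had −0.57 (SE 0.33, edgeR's adjusted p = 1).

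At mid growth neither gene passed the test. Between 70–79 and 80–99 μm the log2 fold change was 0.92 for ALDH1A1 (SE 0.40, edgeR's adjusted p = 0.862) and 0.60 for ALDH1A2 (SE 0.29, adjusted p = 0.881). Between 80–89 and 90–99 μm it was 0.59 (SE 0.44) for ALDH1A1 and 0.43 (SE 0.33) for ALDH1A2, each with an adjusted p of 1 by edgeR. In both comparisons edgeR called 0 genes of all (0%), while 780 and 469 genes had an unadjusted p under 0.05, and DESeq2 called 17 and 0.

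Between 80–99 and 100–109 μm both genes came close to the threshold. ALDH1A1 had a log2 fold change of 1.52 (SE 0.37), or 2.86-fold, and ALDH1A2 one of 1.2 (SE 0.27), or 2.30-fold. Adjusted p-values were 0.0643 and 0.0529 by edgeR, where 0.497% of all genes were called. Both genes passed with DESeq2 (adjusted p of 0.0082 and 0.00336), with no filter on low counts (0.00204 and 0.0114 by edgeR) and with single oocytes as units (0.026 and 0.00577 by edgeR). That last setting takes oocytes as replicates although no animal is named. It called 679 of 10993 genes in this comparison, against 70 of 14087 on the sums. Of 25 alternatives, 8 called ALDH1A1, with adjusted p-values from 0.00204 to 1, and 13 called ALDH1A2, with adjusted p-values from 0.00336 to 1.

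In the largest oocytes neither gene passed the test. Between 100–109 and 110–119 μm, where 3.88% of all genes were called, ALDH1A1 had a log2 fold change of −0.01 (SE 0.45, edgeR's adjusted p = 0.999). Its sign was not fixed, as it was −1.17 without the 110–119 μm sum of replicate 1 and 0.77 without that of replicate 2, and it was positive, between 0.01 and 0.23, under 15 others of the 25 alternatives. ALDH1A2 had one of 0.63 (SE 0.33, adjusted p = 0.225, and 0.039 with single oocytes as units, among 25 alternatives between 0.039 and 0.835). Single oocytes as units are cells taken as replicates. Between 110–119 and > 120 μm, where 0.00710% were called, ALDH1A1 had −1.0 (SE 0.45, edgeR's adjusted p = 0.439) and ALDH1A2 had 0.68 (SE 0.33, adjusted p = 0.451). The value of ALDH1A1 in the latter comparison rested on few oocytes. It was −0.51 without the oocyte of highest level at 110–119 μm, −2.02 without that of the > 120 μm sum of replicate 2, and 0.11 without the whole 110–119 μm sum of replicate 1. Without the 110–119 μm sum of replicate 2 it was −1.80, with an adjusted p of 0.0356 by edgeR, the lowest over 24 alternatives (highest 1) and the only one that passed.

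**Figure D4:**
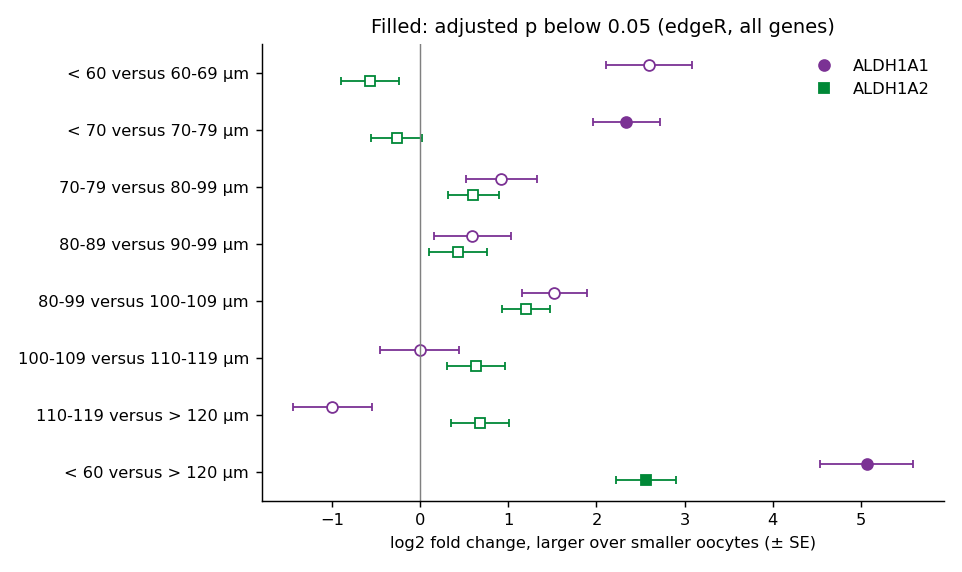
log2 fold change of ALDH1A1 (purple circles) and ALDH1A2 (green squares) in the 8 comparisons of size groups (y axis), larger over smaller oocytes, with the standard error as bars; filled symbols passed the quasi-likelihood test of edgeR over all genes at an adjusted p of 0.05. Filled are ALDH1A1 at < 70 versus 70–79 μm (2.34) and both genes at < 60 versus > 120 μm (5.07 and 2.56).

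The ratio of ALDH1A1 to ALDH1A2 counts was lowest in the smallest oocytes and highest in those of middle size. In the sums of oocytes < 60 μm it was 0.0757 in replicate 1 and 0.390 in replicate 2. It was 1.69 and 2.17 at 60–69 μm, 3.15 and 4.94 at 70–79 μm, 4.69 and 4.49 at 80–89 μm, 3.15 and 8.22 at 90–99 μm and 4.54 and 8.00 at 100–109 μm. It then stood at 4.56 and 2.46 at 110–119 μm and at 1.17 and 1.33 at > 120 μm. Both replicates were thus lowest in the smallest oocytes and, from 70 μm upward, lowest in the largest. Other ratios also moved without the oocyte that had most ALDH1A1 counts of a sum. In replicate 2 the ratio was then 2.77 at 70–79 μm and 1.41 at 60–69 μm. In replicate 1 it was 0 at < 60 μm, while at 100–109 μm it rose to 4.83. The value of replicate 2 at > 120 μm rested on 1 of its 4 oocytes, without which it was 0.195, below the 0.390 of the smallest oocytes. A straight line of the log2 ratio over mean diameter, chosen after these values were seen, rose by 0.285 per 10 μm over the 16 sums, with a two-sided p of 0.13 (100000 permutations of diameters within replicate), and by 0.422 in replicate 1 and 0.154 in replicate 2. Without that oocyte it was 0.155 over the 16 sums. Over the 12 sums of 70 μm and more the slope was −0.270. The counts of the genes also depend on transcript length, so the ratio compares sizes and not the amounts of the enzymes' transcripts.

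The retinoid pathway could be tested in part. Of 38 retinoid pathway genes listed, 14 (36.8%) could be paired with an ID and 9 passed the filter on low counts. Between < 60 and > 120 μm, 2 of the 9 were called, both higher, and they were ALDH1A1 and ALDH1A2, a share near the 19.2% of all genes. The other 7 had a median log2 fold change of 0.32, against −0.12 over all genes. ALDH1A3, the other ALDH1A gene listed, had a group median of 8.02 CPM at < 60 μm, 9.99 CPM at 70–79 μm and 1.95 CPM at > 120 μm. Its log2 fold change from the smallest to the largest oocytes was −1.05 (SE 0.57, edgeR's adjusted p = 0.209). The sign was opposite to those of ALDH1A1 and ALDH1A2, but the difference from 0 did not pass.

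Upstream of retinal, SDR16C5, a retinol dehydrogenase, had a median of 11.1 CPM at < 60 μm and of 2.24 CPM at > 120 μm, with a log2 fold change of −2.23 (SE 0.83, edgeR's adjusted p = 0.0651). ADH1C, an alcohol dehydrogenase, had a count in 31 oocytes of all groups and ADH7 in 7, and BCO1, which cleaves beta-carotene to retinal, in 3. DHRS3, which reduces retinal back to retinol, had a count in 5 oocytes, and CYP27C1, a retinol desaturase, in 4. SDR16C5 itself had a count in most oocytes of both ends of the range, 37 of the 46 oocytes < 70 μm and 23 of the 33 oocytes of 110 μm and more, whereas the other 5 enzymes were at 0 in most oocytes.

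Downstream of retinal, CRABP1 had a count in 25 oocytes, among them 14 of the 46 oocytes < 70 μm and none of the 33 oocytes of 110 μm and more. Its adjusted p between < 60 and > 120 μm was 0.144 by edgeR. The retinoic acid hydroxylase CYP26B1 had a count in 33 oocytes and CYP26C1 in 53, and the receptor RXRA in 58. RXRA had a log2 fold change of 1.46 (SE 1.29, edgeR's adjusted p = 0.458) and CYP26C1 one of 2.63 (SE 1.39, adjusted p = 0.193). ALDH8A1, another aldehyde dehydrogenase listed in the pathway, had 0.51 (SE 0.65, adjusted p = 0.629).

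The aldehyde dehydrogenase family held genes called in both directions. Of 18 family genes listed, 16 were paired and 14 passed the filter. Between < 60 and > 120 μm, 3 were called as higher and 4 as lower, with a median log2 fold change of 0.45, and the 12 genes other than ALDH1A1 and ALDH1A2 had a median of −0.01. Of these 12, 1 was called as higher and 4 as lower, where 9.36% and 9.80% of all genes were, and the difference was not tested. The other gene called as higher, ALDH3B1, had 0 counts in oocytes < 60 μm and 49 counts in those > 120 μm, of which 37 came from a single oocyte, and 0 counts in the > 120 μm sum of replicate 2 (edgeR's adjusted p = 0.0259). Its level was at least 32.6-fold higher, taking 3 counts over the group of smallest oocytes as the floor.

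The family members that fell are enzymes of amino acid and carnitine metabolism and a mitochondrial dehydrogenase. ALDH18A1, which makes the precursor of proline, fell by 2.85 on the log2 scale (SE 0.46, edgeR's adjusted p = 0.000368), from a median of 76.1 CPM at < 60 μm to 14.5 CPM at > 120 μm. ALDH9A1, of carnitine synthesis, fell by 2.63 (SE 0.52, adjusted p = 0.0018 by edgeR) and ALDH6A1, of valine breakdown, by 2.14 (SE 0.52, adjusted p = 0.00836 by edgeR). ALDH1B1, a mitochondrial enzyme, fell by 1.39 (SE 0.46, adjusted p = 0.0392 by edgeR). ALDH2, the mitochondrial acetaldehyde dehydrogenase, stayed between group medians of 28.2 and 44.1 CPM, with a log2 fold change of 0.40 (SE 0.39, adjusted p = 0.509 by edgeR). ALDH7A1, of lysine breakdown, had −0.42 (SE 0.35, adjusted p = 0.44 by edgeR). In the successive comparisons, ALDH1A1 between < 70 and 70–79 μm was the only family member that edgeR called.

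**Figure D5:**
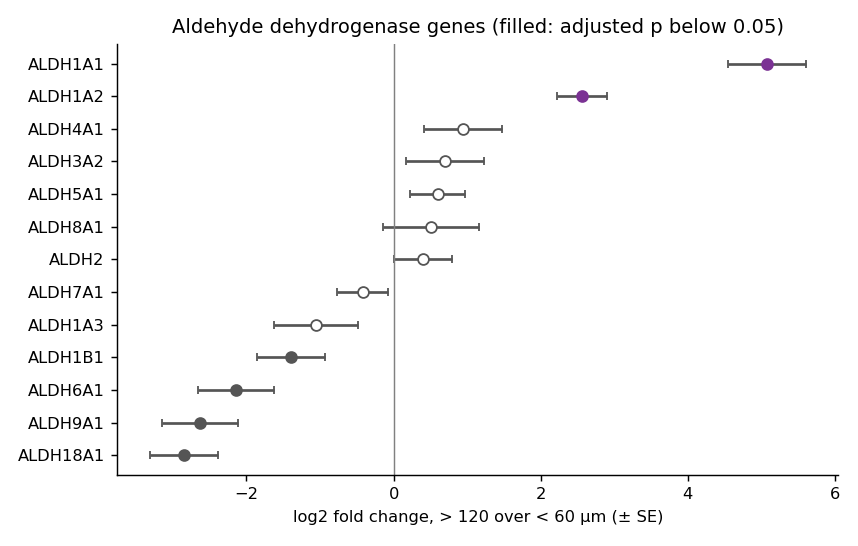
log2 fold change from < 60 to > 120 μm (x axis, standard error as bars) of 13 aldehyde dehydrogenase genes, ordered by value; purple marks ALDH1A1 and ALDH1A2, and filled points passed edgeR's test at an adjusted p of 0.05. ALDH1A1 (5.07) and ALDH1A2 (2.56) stand at the top, ALDH18A1 (−2.85) at the bottom; ALDH3B1, with 0 counts at < 60 μm, is not drawn.

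Markers of cells around the oocyte were set beside the 2 genes. The summed level of the 3 paired granulosa cell markers, of 9 listed, had an r of −0.321 with ALDH1A1 and of −0.287 with ALDH1A2 across all oocytes. GATA4 had a count in 22 of the 46 oocytes < 70 μm and in 6 of the 33 oocytes of 110 μm and more, FSHR in 22 and 1, and AMHR2 in 3 and 1. The group median of the 3 markers was 1.56 CPM (range 0 to 9.07) at < 60 μm and 0 (range 0 to 5.71) at > 120 μm, and the highest single oocyte, at 16.1 CPM, was in the group of 100–109 μm. The 9 paired theca and stroma markers had group medians between 10.5 and 27.7 CPM, and an r of 0.182 with ALDH1A1 and −0.084 with ALDH1A2. Of the 4 of them that were tested, COL1A2, a collagen chain, was called as higher between < 60 and > 120 μm, with a log2 fold change of 3.20 (SE 0.73, edgeR's adjusted p = 0.0055). The other 3 were not called, with −1.0 for ACTA2, −1.50 for CALD1 and 0.25 for CNN1, and the median of the 4 was −0.38, against −0.12 over all genes. The sums of COL1A2 went from 0.147 and 1.67 CPM to 9.38 and 8.39 CPM. Between < 60 and 60–69 μm COL1A2 had 2.0 (SE 0.70, edgeR's adjusted p = 1) and between < 70 and 70–79 μm 1.41 (SE 0.58, adjusted p = 0.592). The other collagen genes listed were nearly absent, COL1A1 with a count in 2 oocytes and COL3A1 in 4, and the stroma gene DCN had a count in 13. The 3 endothelial markers had a median of 0 in every group. The 8 immune markers had group medians between 35 and 123 CPM, most of it from CSF1R (34.5 to 122 CPM), with an r of −0.045 with ALDH1A1 and −0.226 with ALDH1A2. The 5 oocyte markers had an r of 0.439 with ALDH1A1 and of 0.469 with ALDH1A2, and 4 of the 5 were called as higher between < 60 and > 120 μm. The part of these markers in the results was not tested.

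Among 2922 genes with a symbol that passed the filter, the 5 most like ALDH1A1 across all oocytes, by Pearson's r of log2(CPM + 1) centred within replicates, were BSP1, GATA3, ATF3, AKR1A1 and CALB1, with an r between 0.569 and 0.631. BSP1 is known as a sperm-binding protein of seminal plasma, GATA3 and ATF3 are transcription factors, AKR1A1 is an aldehyde reductase and CALB1 binds calcium. BSP1 ran from a median of 4.89 CPM at < 60 μm to 178 CPM at 90–99 μm, and had rank 3 among all 14086 other genes. For ALDH1A2, 4 of the 5 most like it were CCL25, CFAP20, AKR1A1 and ASNS, with an r between 0.573 and 0.607. CCL25 is a chemokine, CFAP20 a ciliary protein and ASNS makes asparagine. AKR1A1 stood in both lists, with an r of 0.587 with ALDH1A1 and 0.574 with ALDH1A2, with a median of 12.5 CPM at < 60 μm and of 265.9 CPM at > 120 μm. ALDH1A2 itself ranked 134th among the genes most like ALDH1A1, and ALDH1A1 ranked 205th among those most like ALDH1A2. All these genes share the oocytes, the libraries and a relation with diameter.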

How the data were processed

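Single oocytes were measured for their polyadenylated mRNA. The authors trimmed reads with Trim Galore (version 0.6.6), mapped them to ARS-UCD1.2 (bosTau 9) with HISAT2 and used SeqMonk to count reads per gene. The deposited values are raw counts, not normalized and not batch-corrected, and 0 columns were left unused. How strand, overlapping genes and reads with several alignments were treated is not given in the sources used here.

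The oocytes that passed the study's own quality control were used, and all 179 deposited in an alternative. No 2 of them had identical counts. The table has 23161 lines, of which 3622 share their ID with another line, and such lines were added up. Symbols came from the study's lists of expressed and lowly expressed genes, which were held here in part and pair 3608 IDs. Columns were matched to samples by oocyte name. The 2 genes and the gene lists were chosen with earlier results of these data known.

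Counts were summed per size group and replicate (16 sums). The filterByExpr step of edgeR 4.0.16 (minimum count 10, minimum total 15) kept 14087 genes. Sums were normalized by TMM and fitted with size group and, as a block, replicate. Contrasts were tested by quasi-likelihood and adjusted by Benjamini-Hochberg, with a threshold of 0.05. Groups such as < 70 and 80–99 μm were means of the groups they hold. The replicate is 1 library batch, and its sums shared their deviations from the group means (correlation between 0.398 and 0.694 over 28 pairs), so it pairs the sums. Replicate and read length cannot be told apart. The standard error is the fold change over the square root of F. The fit and the correlations were tested on simulated data.

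Levels per oocyte are counts per 1000000 (CPM) of the TMM effective library size. Correlations used log2(CPM + 1), centred within each replicate. Binomial intervals are exact (95%).

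Named are ALDH1A1 and ALDH1A2, the listed members of the aldehyde dehydrogenase family and retinoid pathway that could be paired, and the 5 genes most like each, of which 1 for ALDH1A2 is not reported here. The alternatives tried were leaving out the replicate block or the filter, RLE normalization, DESeq2 1.42.0, single oocytes as units, 250000 counts per oocyte, all 179 oocytes, each sum left out in turn, other pseudocounts and each replicate alone. Leaving out an oocyte that dominates a sum, its ratio or a group mean, and CPM of the total count, were added after the data were seen. Software was R 4.3.3 and Python 3.11.15 with pandas 2.3.3, numpy 2.4.6, matplotlib 3.10.9 and scipy 1.17.1.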

Additional observations from a re-analysis of the deposited data

Results flagged for a closer look

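The 14 deposited oocytes outside the analysed set held counts of both genes, and they enter the comparisons only in the alternative with all 179 oocytes. More than 3 counts of ALDH1A1 were found in 6 of the 14, with up to 1167 counts and between 1.67 and 596 CPM of the oocyte's total. More than 3 counts of ALDH1A2 were found in 5 of the 14, with up to 158 counts and between 8.34 and 43.1 CPM. ALDH1A1 was at 0 in 6 of them and ALDH1A2 in 8. In 3 of the 14, ALDH1A1 was found without ALDH1A2, which no analysed oocyte showed, though only 3 analysed oocytes lacked ALDH1A2.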

How the results depend on the processing

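The upregulation of both genes between < 60 and > 120 μm passed under all 25 alternatives, 24 by edgeR and 1 by DESeq2, with a log2 fold change between 4.01 and 6.38 for ALDH1A1 and between 2.10 and 3.04 for ALDH1A2. The replicate block decided 3 other calls. Without it the adjusted p for any difference among the groups was 0.0838 for ALDH1A1 and for ALDH1A2, and ALDH1A1 between < 70 and 70–79 μm, at an unchanged log2 fold change of 2.34, was not called. The number of all genes called between < 60 and > 120 μm was 81 without the block and 2700 with it.

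Ranges in the following are over the sums left out 1 at a time. ALDH1A1 between < 70 and 70–79 μm was also not called with all 179 oocytes (2.37), and ranged from 2.05 to 2.98. Between < 60 and 60–69 μm it was called with DESeq2 (2.63), with no filter (2.58) and without the dominant oocyte at 110–119 μm (2.62), and ranged from 1.98 to 3.84. Between 80–99 and 100–109 μm, ALDH1A1 was called with DESeq2 (1.54), no filter (1.54), single oocytes (1.36) and without that oocyte (1.51), and ranged from 1.33 to 1.72. ALDH1A2 was called there with RLE normalization (1.22), DESeq2 (1.22), no filter (1.23), single oocytes (1.03) and without that oocyte (1.2), and ranged from 1.14 to 1.31. ALDH1A2 between 100–109 and 110–119 μm was called only with single oocytes (0.77), a setting that takes oocytes as replicates. Signs turned for 3 uncalled values. ALDH1A1 between 100–109 and 110–119 μm (−0.01) was 0.04 with RLE normalization, 0.05 with DESeq2, 0.01 with no filter and 0.21 with single oocytes, and ranged from −1.17 to 0.77. ALDH1A2 between < 70 and 70–79 μm (−0.27) was 0.01 at 250000 counts per oocyte. ALDH1A1 between 110–119 and > 120 μm ranged from −1.80 to 0.11, was −2.02 without the dominant oocyte at > 120 μm, and DESeq2 gave no adjusted p there. The cause of these changes was not tested. The correlation of ALDH1A2 with diameter was 0.720 with log2(CPM + 10), and its share of oocytes with a count was 89.7% at 250000 counts per oocyte, against 98.2%, so depth limits detection.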
